A study of Mus musculus with 4 samples.

Results

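The array labelled as CycG2 knockout (G2KO) was compared with the array labelled as its wild type (WT), probe by probe, leaving out chromosomes X and Y. Of 39429 probes on the array design, 27171 autosomal or unplaced probes were well above background on at least 1 of these arrays, and 27142 of them gave a ratio, for 18931 named genes. The cells were mouse embryonic fibroblasts (MEFs), the mesenchymal cells that grow out of dissociated mid-gestation embryos. They were of the C57BL/6J strain, of genotype CycG2-/- for the G2KO-labelled array and CycG2+/+ for the WT-labelled array, and were harvested in logarithmic growth without a treatment. The study's knockout MEFs came from embryos of knockout mice, in which the deletion is not restricted to a tissue. Passage number and the number of embryos behind a culture are not given in the sources used here. The study describes its G2KO MEFs as female. A second pair on the same slide, CycG1-/- CycG2-/- MEFs (DKO) and their CycG1+/+ CycG2+/+ WT, also C57BL/6J, is used only to place levels. Each side of each pair is 1 array, so ratios carry no replicate error, genotypes could not be tested against each other, and precision is limited by having 2 arrays.

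CycG2, encoded by Ccng2, and its relative CycG1 are unconventional cyclins. Rather than driving the cell cycle through a kinase, they bind regulatory subunits of the phosphatase PP2A, and CycG1 is a long-known transcriptional target of p53. The comparison asked which mRNAs differ in MEFs without CycG2. In cultured MEFs the same p53 network is tied to the Cdkn2a locus, whose products p16Ink4a and p19Arf restrain the G1 kinases and Mdm2. The locus is known for rising with time in culture and for being lost or silenced in MEFs that escape senescence.

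Levels are given as signal divided by the 75th percentile of the array, and ratios as log2 of the G2KO-labelled array over the WT-labelled array. A probe whose signal was not well above background on an array is called dim there. The ratio of a probe dim on 1 array is a limit, taken against its own signal or the lowest clearly detected signal of that array, whichever was higher, and is written as at least or at most. The targeted gene did not separate the arrays: Ccng2 had a level of 0.091 on the G2KO-labelled array and 0.104 on the WT-labelled array, beside 0.0806 on the WT array of the DKO pair and 0.0619 on the DKO array. Where its probe (chromosome 5, 93705131 to 93705190 of mm9) lies relative to the deleted part of Ccng2 is not given in the sources used here, so it checks nothing. Ccng1 had a level of 1.98 on the G2KO-labelled array, 9.45 on the WT-labelled array, 1.66 on the WT array of the DKO pair and a dim 0.00685 on the DKO array. All directions below are as labelled, and for the genes that the study lists for G2KO MEFs they run opposite to its list. The labels of the pair may be exchanged, in which case every direction below would turn, and the files alone do not settle it.

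The G2KO-labelled array lay closer to the WT array of the DKO pair than to the WT-labelled array. Over autosomal probes well above background on both arrays, log2 ratios had an SD of 0.885 between the arrays labelled G2KO and WT. The SD was 0.57 between the G2KO-labelled array and the WT array of the DKO pair. Between the arrays labelled WT in both pairs it was 1.03. Against the DKO array the SDs were 1.06 (its own WT), 1.09 (G2KO-labelled) and 1.16 (WT-labelled), so 0.57 was the smallest. Of the probes at least 4-fold higher on the G2KO-labelled array, 777 of 954 lay nearer to it than to the WT-labelled array on the WT array of the DKO pair, as did 485 of the 520 lower probes. For probes short of 4-fold the share was 67.3%. On the DKO array 48.7% of the higher, 65.6% of the lower and 54.0% of the probes short of 4-fold lay nearer to the G2KO-labelled array. The main gene groups are therefore also given against the other WT array. Xist, the RNA of the inactive X of female cells, was lower on the G2KO-labelled array and Y-linked genes were higher there, which is the reverse of the sex the study gives for its G2KO MEFs. The sex of the embryos and the labelled genotype cannot be told apart.

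Between the arrays labelled G2KO and WT, 954 probes were at least 4-fold higher (3.51% of those with a ratio) and 520 at least 4-fold lower (1.92%). By gene name the counts were 754 higher (3.98%) and 399 lower (2.11%). Against the WT array of the DKO pair, 210 of 25540 autosomal probes with a ratio were higher and 345 lower on the G2KO-labelled array. By gene name, 163 of 17846 were higher on the G2KO-labelled array in that comparison. On the WT-labelled array, 537 of 18418 genes were higher and 902 lower than on the WT array of the DKO pair. List counts against that array are read beside these. Between the arrays labelled G2KO and WT, the higher side also reached further. There, 140 probes were at least 32-fold higher and 31 at least 32-fold lower, and among probes measured on both arrays these counts were 70 and 9. Most of the transcriptome stayed close, since 86.6% of the 24562 probes measured on both arrays differed by less than 2-fold. The median log2 ratio over all genes was -0.16, which is the value to set beside the medians of the gene lists below. Limits account for 385 of the higher and 218 of the lower probes. With probes split into 5 equal bins by their brighter level, 6.85% were higher and 3.89% lower in bin 2, counted from the dimmest, and 1.69% and 0.718% in the brightest bin. In the dimmest bin, where limits leave little room, the shares were 0.608% and 0.755%.

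**Figure D1:**
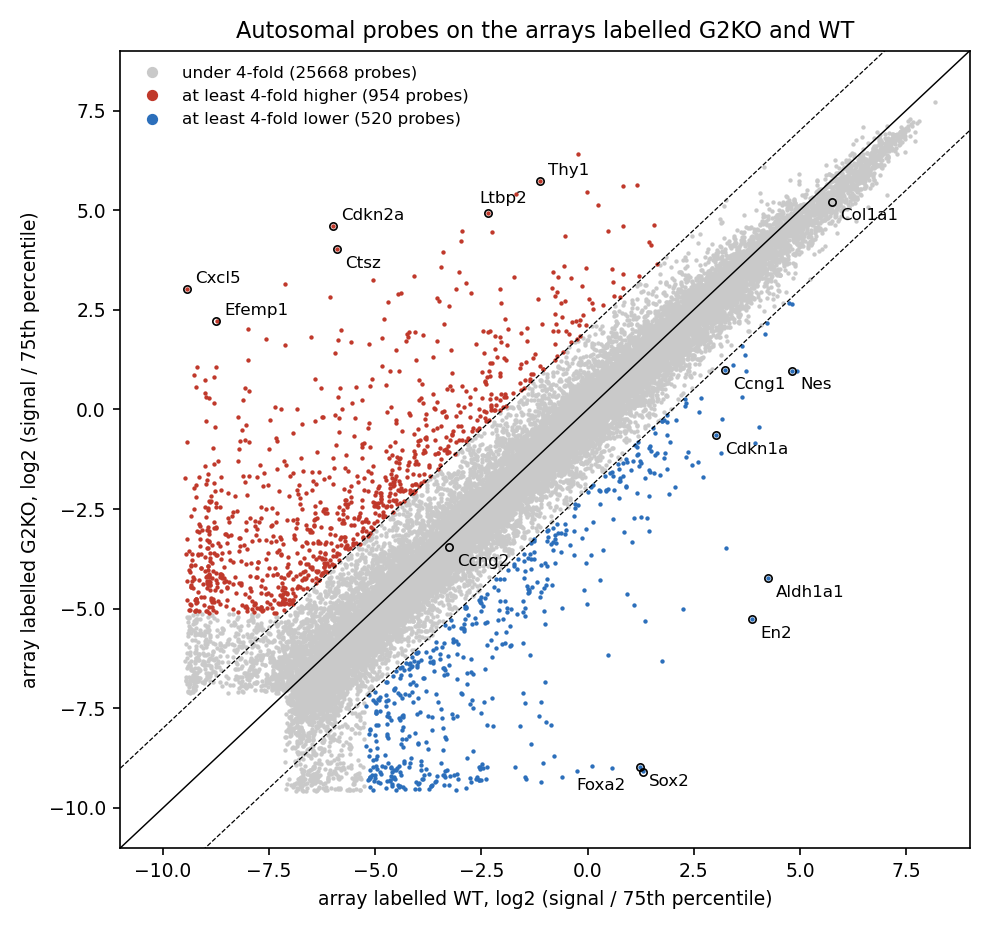
Each point is an autosomal probe, with its log2 level on the WT-labelled array (x axis) and on the G2KO-labelled array (y axis), relative to the 75th percentile of each array. The solid line marks equal levels and the dashed lines 4-fold; 954 probes (red) were at least 4-fold higher and 520 (blue) at least 4-fold lower, grey points outside the dashed lines are dim on 1 array and their limit stayed under 4-fold, and Cdkn2a and En2 lie far from the line while Ccng2 and Col1a1 lie near it.

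Different probes of the same gene gave a measure of how far a ratio depends on the probe. For 3956 genes with both of their brightest probes measured on both arrays, the ratios of these probes differed by a median of 0.19 on the log2 scale, with 1.07 at the 95th percentile. Of 211 genes whose brightest probe passed 4-fold, the next probe passed 4-fold the same way in 121 and the opposite way in 0. From repeated spots of the same probe, the ratio of single spots had an SD of 0.113, which covers spotting error and not cultures.

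Among genes measured on both arrays, the highest ratio was that of Cdkn2a, which encodes p16Ink4a and p19Arf. Its level was 24.3 on the G2KO-labelled array, 0.0157 on the WT-labelled array, 23.3 on the WT array of the DKO pair and 5.09 on the DKO array. The WT-labelled array was thus the single low array, 1550-fold below the G2KO-labelled array (log2 ratio 10.60), and a second Cdkn2a probe was at least 207-fold lower there. The files do not name an isoform for these probes (chromosome 4, 88920405 to 88920464 and 88920543 to 88920602 of mm9). Its neighbour Cdkn2b, the p15Ink4b inhibitor of Cdk4 and Cdk6, followed: 4.07 on the G2KO-labelled array, 6.31 and 4.03 on the WT and DKO arrays of the other pair, and a dim 0.00392 on the WT-labelled array (at least 569-fold).

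The promoters of these genes are printed because both genes were dim or nearly so on the same array, and CG content is the feature by which promoters of this locus are usually described. The windows are those of RefSeq (GRCm38.p6, minus strand, 250 bases before to 50 after the annotated start), read 5′ to 3′, with every CG in capitals. Cdkn2a has 2 annotated starts, of which the one further upstream is that of p19Arf and the other that of p16Ink4a. The upstream window of Cdkn2a holds 45 CG, the downstream window 12 and that of Cdkn2b 18, where promoters of all genes with a ratio had a median of 18.
Cdkn2a, upstream start, chr4:89294570-89294869: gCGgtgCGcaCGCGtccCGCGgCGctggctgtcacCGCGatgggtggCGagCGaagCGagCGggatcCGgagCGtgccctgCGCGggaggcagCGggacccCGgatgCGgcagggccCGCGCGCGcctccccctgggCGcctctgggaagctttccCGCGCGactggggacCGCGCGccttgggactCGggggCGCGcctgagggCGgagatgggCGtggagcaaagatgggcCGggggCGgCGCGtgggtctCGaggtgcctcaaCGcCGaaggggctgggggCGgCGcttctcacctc
Cdkn2a, downstream start, chr4:89282143-89282442: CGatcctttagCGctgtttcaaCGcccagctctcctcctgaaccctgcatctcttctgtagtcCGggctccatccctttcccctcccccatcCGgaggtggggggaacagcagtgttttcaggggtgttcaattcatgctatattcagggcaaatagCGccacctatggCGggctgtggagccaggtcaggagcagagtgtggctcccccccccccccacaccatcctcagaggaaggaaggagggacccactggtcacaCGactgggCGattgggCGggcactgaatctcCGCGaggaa
Cdkn2b, chr4:89310983-89311282: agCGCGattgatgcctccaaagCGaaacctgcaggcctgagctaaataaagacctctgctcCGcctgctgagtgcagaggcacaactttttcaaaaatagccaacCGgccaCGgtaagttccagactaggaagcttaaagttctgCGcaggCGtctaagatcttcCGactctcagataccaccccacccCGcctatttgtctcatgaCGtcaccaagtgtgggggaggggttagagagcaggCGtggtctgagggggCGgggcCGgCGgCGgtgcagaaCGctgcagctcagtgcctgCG

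The low signal was not shared by every gene of the region. Several of its genes belong to the interferon alpha family, whose low levels on both arrays could show little loss, such as Ifna7 (0.0133 and 0.0218). Of 32 gene names within 1 Mb of the Cdkn2a probe, a window chosen with results known, 26 had a ratio, 3 were at least 4-fold higher and 1 at least 4-fold lower. Mtap, a purine salvage enzyme next to the locus that is often lost with it in tumours, had levels of 1.87 and 0.569 on the arrays labelled G2KO and WT. Its levels on the WT and DKO arrays of the other pair were 2.08 and 1.46, so the WT-labelled array was the lowest. The log2 ratio of Mtap was 1.72, short of 4-fold. The third higher gene was a transcript named only as ENSMUSG00000073810, whose limit was 3.64. On the far side of Cdkn2b, Dmrta1, a transcription factor of the DM domain family, went the opposite way: its level was 0.555 on the WT-labelled array, and the other 3 arrays were dim, between 0.0018 and 0.00414. Its log2 ratio was at most -6.39. Other genes of the region were close to equal, such as Klhl9 with levels of 5.88 and 6.01. In a separate list of 8 neighbours that reaches further out, 0 of 6 with a ratio were higher and 2 lower, Dmrta1 and Mllt3, a transcription elongation gene with a log2 ratio of -2.64.

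**Figure D2:**
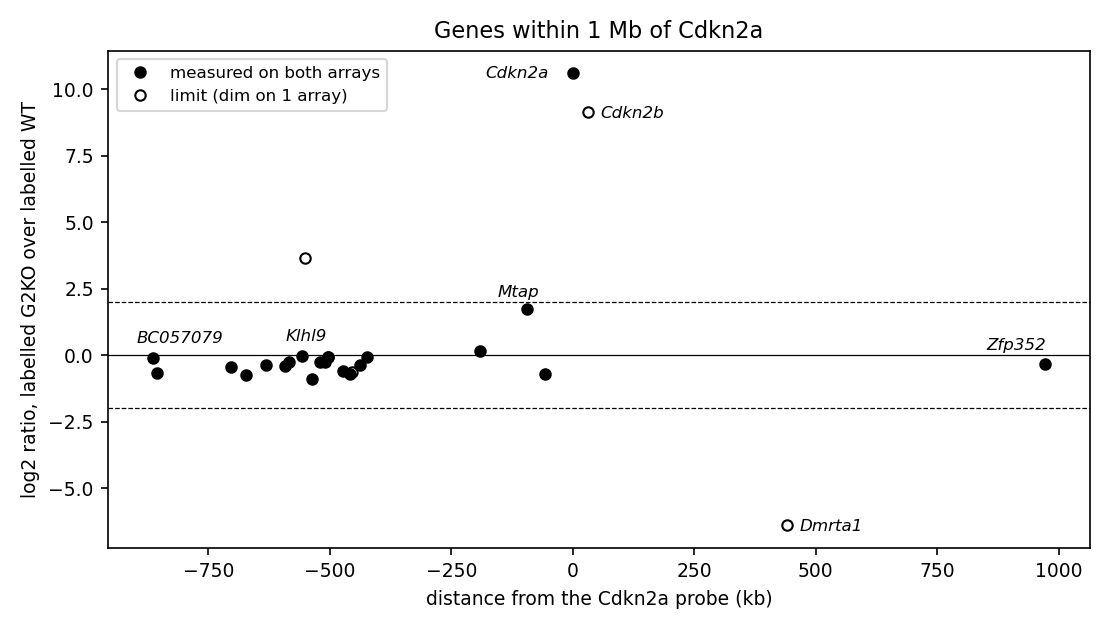
Log2 ratio of the G2KO-labelled array over the WT-labelled array (y axis) for the 26 gene names with a ratio within 1 Mb of Cdkn2a, by distance of their probe from the Cdkn2a probe in kb (x axis). Open circles are limits and dashed lines mark 4-fold; Cdkn2a and Cdkn2b stand above, Dmrta1 below, Mtap is at 1.72, and the third point past 4-fold above is the transcript ENSMUSG00000073810 at 3.64.

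Among the other CDK inhibitors, Cdkn1c (p57), which is imprinted, was higher with a log2 ratio of 4.81, and Cdkn1a (p21) was lower. The level of Cdkn1a was 0.643 on the G2KO-labelled array, 8.2 on the WT-labelled array, 0.572 on the WT array of the DKO pair and 5 on the DKO array. The WT-labelled array and the DKO array were thus the high arrays for p21, and a second probe on the array gave a log2 ratio of -5.77. Cdkn1b (p27) had a log2 ratio of -1.09. In all, 3 of 8 CDK inhibitors were at least 4-fold higher and 1 at least 4-fold lower.

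Targets of p53 lay on the low side as a group. Of 24, 5 were at least 4-fold lower and 0 higher, with a median log2 ratio of -1.07 against -0.16 over all genes, and 19 were below that value. Those past 4-fold were Cdkn1a, Ccng1 (-2.26), Perp, a desmosome protein of the apoptotic response (-2.72), Trp53inp1 (-2.95) and the stress cytokine Gdf15 (at most -2.94). Their levels on the WT array of the DKO pair were near those of the G2KO-labelled array: 0.641 against 0.469 for Perp and 0.257 against 0.125 for Trp53inp1. The DKO array was the highest for both, at 35 and 4.34. A second Trp53inp1 probe gave a log2 ratio of -1.81, short of 4-fold. With the WT array of the DKO pair as comparator, 0 of 23 p53 targets with a ratio were 4-fold lower or higher on the G2KO-labelled array and 6 of 24 were higher on the WT-labelled array.

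Genes of mitosis differed by small amounts between these arrays, yet both arrays differed from the other pair. Of 24, 0 reached 4-fold in either direction, and the median log2 ratio was -0.88 with 23 of 24 below the median of all genes. Bub1, a spindle checkpoint kinase, had levels of 1.09 and 2.95 on the arrays labelled G2KO and WT, and 0.207 and 0.242 on the WT and DKO arrays of the other pair. Against that WT array, 15 of 24 were at least 4-fold higher on the G2KO-labelled array and 23 of 24 on the WT-labelled array. For Prc1, which bundles spindle microtubules, the levels in the same order were 6.98, 18.7, 2.06 and 1.64. Whether these genes have a part in the other differences was not tested.

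DNA replication genes had a median log2 ratio of -0.52, and 0 of 24 passed 4-fold. Genes of DNA damage signalling and repair, the pathway in which CycG2 has been placed, had a median of -0.36, and 0 of 28 passed 4-fold. Both medians lay near that of housekeeping genes, -0.48. The lowest of the repair genes was Fancd2 (levels 0.0779 and 0.228). Of 20 genes listed as cyclins and their kinases, which include the cyclin G-associated kinase Gak, Ccng1 alone was past 4-fold. Among the others measured on both arrays, Ccnd1 (cyclin D1) came closest to 4-fold, with levels of 9.66 and 37.7 and a log2 ratio of -1.97. A list of subunits of PP2A, the phosphatase that CycG2 binds, and its methylesterase Ppme1 had a median of -0.05. Of its 16 genes, 15 had no ratio or limit past 4-fold, and Ppp2r2c among them is a limit (at most -0.87). The exception was the brain-type B subunit gene Ppp2r2b, with levels of 0.0637 on the WT-labelled array, 0.47 on the DKO array and dim signals on the others.

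**Figure D3:**
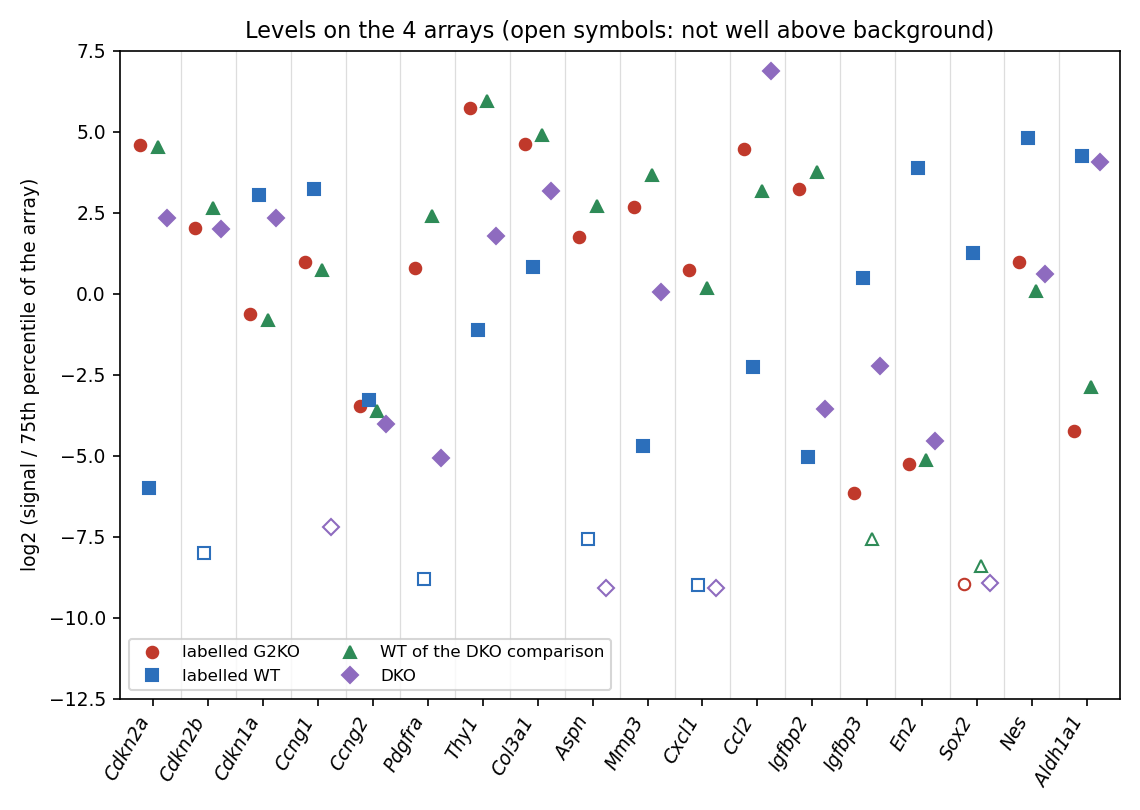
Log2 level (y axis, relative to the 75th percentile of each array) of 18 named genes (x axis) on the arrays labelled G2KO (circles) and WT (squares), the WT array of the DKO pair (triangles) and the DKO array (diamonds); open symbols are not well above background. Circles and triangles lie close for most genes, as for Cdkn2a at 24.3 and 23.3 times the 75th percentile, and the square is the lowest of the 4 for Cdkn2a, Cdkn2b, Thy1 and Col3a1 and the highest for Cdkn1a, Ccng1, En2, Sox2 and Nes.

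The label of the cells was checked on marker genes. Fibroblast markers divided: 8 of 17 were at least 4-fold higher on the G2KO-labelled array and 0 lower, with a median of 1.90. The other 9 had no ratio or limit past 4-fold, and the limit of Lum (at least 1.47) leaves a larger difference possible. Type I collagen (Col1a1 levels 37.2 and 54.3), fibronectin (Fn1, 66.1 and 66.8), vimentin (Vim, 55.4 and 70) and the receptor Pdgfrb (8.04 and 5.44) were high on both arrays. The related receptor Pdgfra, a defining fibroblast marker, had a level of 1.75 on the G2KO-labelled array and 5.22 on the WT array of the DKO pair, 0.0296 on the DKO array, and was dim on the WT-labelled array (0.00223). Thy1, a surface glycoprotein used to sort fibroblasts, had levels of 53.1 and 0.461 on the arrays labelled G2KO and WT. Fap, a serine protease of activated fibroblasts, was dim on the WT-labelled array and at least 6.36 higher on the log2 scale. The summed level of the 18 markers was 453.5 on the G2KO-labelled array, 294.9 on the WT-labelled array, 581 on the WT array of the DKO pair and 500.5 on the DKO array. Against the other WT array, 0 markers were higher and 2 lower on the G2KO-labelled array, and 10 of 17 were lower on the WT-labelled array.

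Neural progenitor markers split. Among 15, 5 were at least 4-fold lower and 2 higher, with a median of -1.18, and their summed level was 4.63 on the G2KO-labelled array, 32.6 on the WT-labelled array, and 6.47 and 4.47 on the WT and DKO arrays of the other pair. Sox2, the transcription factor that defines neural progenitors, had a level of 2.37 on the WT-labelled array and was dim on the other 3 (0.00199 to 0.00294), at most -8.49 on the log2 scale. Nes, an intermediate filament found in neural progenitors and in many cultured mesenchymal cells, had levels of 1.96, 28, 1.07 and 1.53. Zfp536, Sox6 and Lhx2 were the other lower ones. Slc1a3 and Ptprz1, glial genes of the same list, were higher, Ptprz1 with levels of 1.46 and 0.0175. Relative to the WT array of the DKO pair, 0 of 11 markers were higher and 1 lower on the G2KO-labelled array, and 6 of 13 were higher and 2 lower on the WT-labelled array.

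Markers of other cells are read beside the shares over all genes, 3.98% higher and 2.11% lower. Endothelial and macrophage markers had 0 of 8 each past 4-fold, with summed levels of 9.6 and 8.28 and of 19.4 and 12.5 on the arrays labelled G2KO and WT. Most of the macrophage sum was a single Itgam probe (17.9 and 11), and 2 other Itgam probes had log2 ratios of -0.36 and -0.32. Of the macrophage markers 5 of 8 had a ratio below 0, among them the defining gene Ptprc with low levels of 0.0192 and 0.0224. Of the defining genes, endothelial Cdh5 was dim on the WT-labelled array and had a level of 0.0205 on the G2KO-labelled array, and mesothelial Wt1 and epithelial Epcam were dim on both arrays. Neuron markers had 2 of 10 higher, both of them defining genes: Tubb3 (levels 1.62 and 0.188) and Stmn2 (0.184 against a dim 0.00231). Glia markers had 1 of 10 higher (Cspg4), epithelial 1 of 8 (the desmosome gene Dsp), cartilage and bone 1 of 8 (Col10a1), mesothelial 3 of 7 (Krt19, Krt18 and Bnc1) and skeletal muscle 3 of 10 (Chrna1, Tnnt1 and Tnnc1), all with 0 lower, and smooth muscle 1 of 12 higher (Actg2) and 1 lower (Lmod1). Ratios below 0 were found for 3 of 7 mesothelial and 1 of 10 skeletal muscle markers. Among them were the defining mesothelial gene Msln (levels 0.664 and 1.52) and skeletal muscle Acta1 (4.61 and 13.7). Summed levels on the arrays labelled G2KO and WT were 1.33 and 1.6 for mesothelial and 5.44 and 13.8 for skeletal muscle markers. Krt18 and Bnc1 were dim on the WT-labelled array and low on the G2KO-labelled array (0.0339 and 0.0658). With the WT array of the DKO pair as comparator, 1 of 5 mesothelial and 0 of 9 skeletal muscle markers were higher on the G2KO-labelled array. In bulk RNA, fewer cells of a type and less RNA per cell cannot be told apart.

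**Figure D4:**
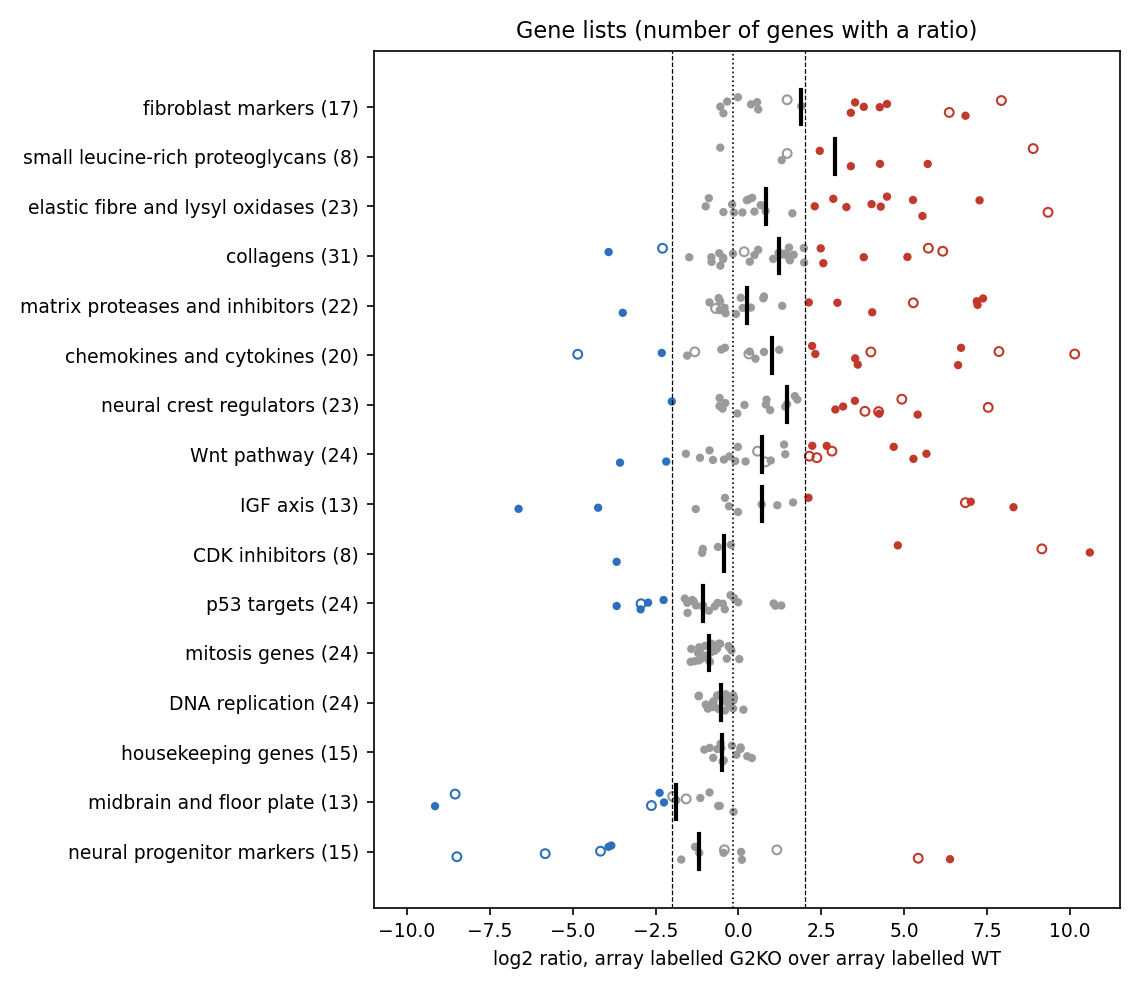
Log2 ratio (x axis) of each gene with a ratio in 16 gene lists (y axis, number of genes in parentheses). Filled points were measured on both arrays, open points are limits, red and blue mark at least 4-fold, black bars are list medians, and the dotted line is the median of all autosomal genes (-0.16); matrix lists extend to the right, as Efemp1 at 9.34, and midbrain and neural progenitor lists to the left, as En2 at -9.15.

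Extracellular matrix lists lay mostly on the higher side. Small leucine-rich proteoglycans, which bind collagen fibrils and growth factors, had 5 of 8 higher and 0 lower, with a median of 2.92. Aspn (asporin) had levels of 3.4 on the G2KO-labelled array and 6.6 on the WT array of the DKO pair, and was dim on the WT-labelled array (0.00528) and on the DKO array (0.00184). Ogn (osteoglycin) was measured on all 4 arrays, at 3.92, 0.203, 23.1 and 1.59 in the order G2KO, WT, WT of the DKO pair and DKO. For decorin (Dcn) the order differed, since the DKO array was the highest at 49 and the arrays labelled G2KO and WT stood at 0.756 and 0.0722. Against the other WT array, 0 of the 8 were higher and 3 lower on the G2KO-labelled array, and 7 were lower on the WT-labelled array.

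Elastic fibre and lysyl oxidase genes had 10 of 23 higher and 0 lower, with a median of 0.82. Efemp1 (fibulin-3) had levels of 4.64, 6.43 and 20.5 on the G2KO-labelled array, the WT array of the DKO pair and the DKO array, and was dim on the WT-labelled array (0.00234). Ltbp2, which binds fibrillin, had levels of 30.3 and 0.196 on the arrays labelled G2KO and WT, and the collagen cross-linking oxidase Lox 9.95 and 0.616. Fibulin-2 (Fbln2) stood at 49.8, 2.23, 70 and 102 in the order G2KO, WT, WT of the DKO pair and DKO. Against the other WT array, 0 were higher and 1 lower on the G2KO-labelled array.

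Collagens differed among themselves. Of 31, 6 were at least 4-fold higher and 2 lower, with a median of 1.21. The fibrillar collagens Col3a1 (24.4 against 1.77) and Col11a1 (8.19 against 0.239) and the network collagens Col8a2 and Col10a1 (limits of 5.73 and 6.16 on the log2 scale) were higher, with a second Col8a2 probe at 2.17. Col1a1 was not, with a log2 ratio of -0.55. Col18a1, a basement membrane collagen whose fragment is endostatin, was lower, with levels of 0.4 and 6.03 and 1.72 on the WT array of the DKO pair. Relative to that array, 0 of 30 collagens were higher and 4 lower on the G2KO-labelled array, and 12 of 31 were lower on the WT-labelled array. Matricellular proteins had 6 of 19 higher and 0 lower, with Sparcl1, Tnn, Postn and Smoc2 at log2 ratios of 6.35, at least 5.11, 4.26 and 3.67. Periostin (Postn) had levels of 10.9, 0.566, 21.6 and 0.116 on the G2KO-labelled array, the WT-labelled array, the WT array of the DKO pair and the DKO array.

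Matrix proteases and inhibitors had 7 of 22 higher and 1 lower. Mmp3 (stromelysin-1) had levels of 6.43 on the G2KO-labelled array, 0.0387 on the WT-labelled array, 12.7 on the WT array of the DKO pair and 1.03 on the DKO array. Mmp2 (gelatinase A) stood at 18.7, 0.126, 27.8 and 14.3 and Mmp13 (collagenase-3) at 1.7, 0.0117, 1.6 and 1.52, so the WT-labelled array was again the single low array. Mmp23 was lower, with a log2 ratio of -3.49. Against the other WT array, 0 of 21 genes of the list were higher and 1 lower on the G2KO-labelled array. On chromosome 9, 4 neighbouring genes of the Mmp cluster were all past 4-fold (Mmp1b, Mmp3, Mmp1a and Mmp10, 2.14 to 7.38 on the log2 scale).

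Chemokines and cytokines had 9 of 20 higher and 2 lower, and 5 of the higher ones lay in 2 chromosomal clusters. On chromosome 5, Cxcl5, Ppbp, Cxcl3 and Cxcl1, ligands of the neutrophil receptor Cxcr2, lay within 131 kb and were all dim on the WT-labelled array. Cxcl5 had levels of 8.09 on the G2KO-labelled array, 1.53 on the WT array of the DKO pair and 0.0114 on the DKO array, at least 10.14 higher than the WT-labelled array on the log2 scale. Cxcl1 stood at 1.66 and 1.12 on the G2KO-labelled array and the WT array of the DKO pair and was dim on the other arrays. On chromosome 11, the monocyte attractants Ccl2, Ccl7 and Ccl8 lay within 79.5 kb; Ccl2 had levels of 22 and 0.21 on the arrays labelled G2KO and WT, 9.05 on the WT array of the DKO pair and 117 on the DKO array. Ccl7 followed, with 39.9 on the DKO array. The DKO array was thus the highest for Ccl2 and Ccl7 and low for Cxcl5 and Cxcl1, and the WT-labelled array low for both kinds. Cxcl14 and Lif, a cytokine of the interleukin-6 family, were the lower genes, with a limit of -4.85 and a ratio of -2.31. Against the WT array of the DKO pair, 3 of 17 were higher and 0 lower on the G2KO-labelled array.

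Promoters are printed for 4 members of these groups, because 3 of them hold TATAAA letters and few CG and the fourth a match to an inflammatory factor's motif. The windows are again those of RefSeq on GRCm38.p6, all on the plus strand, with 250 bases before and 50 after the start. In the Mmp and Aspn windows the letters TATAAA on the printed strand are in capitals. The Aspn window also holds a match on the opposite strand (tttata), left in small letters. In the Cxcl1 window the capitals mark both matches, 1 on each strand, to GGGNNTTTCC, a shortened form of the site bound by NF-kappa-B. The Mmp3 and Mmp13 windows hold 1 CG each and that of Aspn 3. The TATAAA letters begin 7 bases before the annotated start in Mmp3, 16 in Mmp13 and 207 in Aspn.
Mmp3, chr9:7445572-7445871: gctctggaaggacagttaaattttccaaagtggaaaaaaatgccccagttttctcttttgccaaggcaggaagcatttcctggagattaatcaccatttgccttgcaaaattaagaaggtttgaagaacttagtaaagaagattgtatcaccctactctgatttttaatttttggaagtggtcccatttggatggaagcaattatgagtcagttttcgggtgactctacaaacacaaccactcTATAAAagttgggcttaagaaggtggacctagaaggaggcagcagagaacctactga
Mmp13, chr9:7272264-7272563: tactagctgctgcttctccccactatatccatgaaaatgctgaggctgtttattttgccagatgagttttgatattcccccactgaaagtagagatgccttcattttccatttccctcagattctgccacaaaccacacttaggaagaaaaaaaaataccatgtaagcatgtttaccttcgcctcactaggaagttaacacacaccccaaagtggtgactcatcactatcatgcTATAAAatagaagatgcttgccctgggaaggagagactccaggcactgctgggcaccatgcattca
Aspn, chr13:49544193-49544492: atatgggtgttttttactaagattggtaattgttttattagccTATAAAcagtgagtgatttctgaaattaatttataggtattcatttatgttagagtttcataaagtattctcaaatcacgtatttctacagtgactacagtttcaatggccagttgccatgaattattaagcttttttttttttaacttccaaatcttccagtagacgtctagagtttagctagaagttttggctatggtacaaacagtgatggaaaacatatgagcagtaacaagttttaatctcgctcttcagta
Cxcl1, chr5:90890995-90891294: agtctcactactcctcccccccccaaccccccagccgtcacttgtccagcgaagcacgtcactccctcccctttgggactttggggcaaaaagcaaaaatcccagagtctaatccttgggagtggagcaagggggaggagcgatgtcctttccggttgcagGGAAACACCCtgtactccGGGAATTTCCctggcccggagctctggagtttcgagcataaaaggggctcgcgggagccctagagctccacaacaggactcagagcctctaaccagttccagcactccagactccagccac

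Over all promoters of genes with a ratio (14710 windows of 11660 genes matched through RefSeq transcripts), 9.25% held TATAAA on either strand, 56.7% GGGCGG and 1.67% GGGNNTTTCC. Among the 477 higher genes with a window TATAAA stood in 90 of 645 windows, and the other shares were 50.5% and 1.71%, and among the 232 lower genes the 3 shares were 11.3%, 51.1% and 1.29%. Promoters with under 5 CG made up 16.2% of all, 22.0% of the higher and 23.8% of the lower. A match is only a run of letters.

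Secreted signalling factors differed in both directions. Insulin-like growth factor binding proteins were divided: Igfbp2, Igfbp4 and Igfbp6 were higher (8.30, at least 6.85 and 7.01 on the log2 scale), and Igfbp3 and Igfbp5 lower (-6.63 and -4.23). Igfbp2 had levels of 9.49, 0.0302, 13.5 and 0.0857 on the G2KO-labelled array, the WT-labelled array, the WT array of the DKO pair and the DKO array, and Igfbp3 0.014, 1.39, a dim 0.00528 and 0.212. In the IGF axis as a whole, 4 of 13 were higher and 2 lower. Of 21 FGF genes, 5 were higher and 0 lower, among them Fgf7 (10.2 against 0.0593) and Fgf10 (1.56 against 0.0672), ligands that act from mesenchyme on epithelium, and Fgf5 (1.45 against a dim 0.00376). The PDGF list had Pdgfra as its single gene past 4-fold (1 of 7).

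Genes of Wnt signalling had 8 of 24 higher and 2 lower. The higher ones were mainly secreted modulators, among them Dkk2 (7.61 against 0.149), Sfrp2 (0.67 against 0.0173) and the R-spondins Rspo2 and Rspo1, and the ligand Wnt4 was lower (0.0474 against 0.563). TGF-beta and BMP genes had 5 of 24 higher and 2 lower. The activin antagonists Fst and Fstl3 were the lower ones (-2.38 and -3.44). In the retinoic acid list, 4 of 15 were higher, including Dhrs3, Crabp1 and Crabp2, and 2 lower. The lower ones were the synthesising enzyme Aldh1a1, with levels of 0.0531, 18.9, 0.135 and 16.9, and the degrading enzyme Cyp26b1, with 0.555, 15.5, 2.63 and a dim 0.00866. When the WT array of the DKO pair was the comparator, 0 of 24 Wnt genes and 0 of 24 TGF-beta and BMP genes were higher on the G2KO-labelled array. For FGF and retinoic acid genes the counts were 0 of 21 and 0 of 14. In the order given, 2, 2, 0 and 1 genes of these lists were lower, and of the IGF axis 1 of 13 was higher. Over all genes 163 of 17846 were higher in that comparison, so 0 in lists of this size is near that share.

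Developmental transcription factors were among the genes with the lowest ratios and limits. In the list of midbrain and floor plate patterning, 5 of 13 were lower and 0 higher, with a median of -1.87. En2, a homeobox gene of the midbrain and hindbrain boundary, had a level of 14.8 on the WT-labelled array and 0.026, 0.0284 and 0.0424 on the arrays labelled G2KO, WT of the DKO pair and DKO. Its log2 ratio of -9.15 was the lowest among genes measured on both arrays. Foxa2, a forkhead factor of floor plate and endoderm, had a level of 2.46 on the WT-labelled array and 3.58 on the DKO array and was dim on the other 2 (at most -8.54). En1, Nkx6-1 and Foxa1 were the other lower genes, at log2 ratios of -2.38, -2.24 and at most -2.62. Against the WT array of the DKO pair, 0 of 8 were past 4-fold on the G2KO-labelled array and 3 of 13 were higher on the WT-labelled array.

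Regulators of neural crest and craniofacial mesenchyme went the opposite way, with 9 of 23 higher and 1 lower and a median of 1.47. Alx1, a homeobox gene of frontonasal mesenchyme, had levels of 1.33 on the G2KO-labelled array and 2.12 on the WT array of the DKO pair and was dim on the other arrays. Foxc2 (1.96 against 0.0461) and Sox9 (0.831 against 0.0439) were also higher. In the comparison with the other WT array, 0 of 22 were past 4-fold on the G2KO-labelled array. Few Hox genes were measured: of 39 on the array 11 had a ratio, and Hoxa3 and Hoxa7 were lower (at most -2.84, and -2.09). Among T-box and Gata genes Tbx3 and Gata6 were lower (2 of 13).

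Of the imprinted genes, expressed from 1 parental copy, 7 of 19 were higher and 3 lower. Those higher included Cdkn1c (4.81), Mest (2.75), Dlk1 (2.54) and Igf2 (2.11), and the lower ones were Ndn (-4.57), Snrpn (-2.34) and Zim1 (at most -2.71). Other probes lay between 1.29 and 2.49 for Mest and between -2.34 and -1.40 for Snrpn. Dlk1 had levels of 0.639, 0.11, 3.53 and 0.0184, and Ndn 0.0515, 1.22, 0.0671 and 0.549, so that the DKO array was low for Dlk1 and high for Ndn. Of 18 imprinted genes with a ratio against the other WT array, 0 were higher and 2 lower on the G2KO-labelled array.

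Cholesterol synthesis (0 of 18), complement (0 of 11) and housekeeping genes (0 of 15) held no gene past 4-fold, with medians of -0.37, 0.36 and -0.48. Glycolysis and hypoxia genes had 2 of 22 higher (Egln3 and Adm) and 1 lower (Ankrd37). In the glutathione and NRF2 list, 5 of 23 were higher (Gpx7, Gstt1, Gsta4, Gsta1 and Gsta2) and 1 lower, Mgst1, a membrane-bound glutathione transferase, with levels of 0.0254 and 2.54. Gsta1 and Gsta2 are near-identical genes and their probes may share targets. Interferon response genes had 2 of 21 higher (Oasl2 and Rsad2) and 1 lower (Tap1), prostaglandin synthesis genes 2 of 8 higher (Ptgs1, 22.1 against 0.13, and Tbxas1), cathepsins and lysosomal genes 2 of 14 higher and 1 lower, and cadherins 4 of 17 higher and 2 lower. Against the other WT array, 0 of 23 genes of the glutathione list, 0 of 16 cadherins, 0 of 8 prostaglandin genes and 1 of 14 cathepsins and lysosomal genes were higher on the G2KO-labelled array.

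The genes with the largest ratios included others not yet described. Ctsz, the lysosomal cathepsin Z, had levels of 16.2, 0.0168, 18.7 and 9.02 on the G2KO-labelled array, the WT-labelled array, the WT array of the DKO pair and the DKO array. Pdpn (podoplanin), a mucin-type glycoprotein of lymphatic and fibroblastic cells, stood at 8.89, a dim 0.00718, 7.64 and 26.5. Ddr2, a receptor tyrosine kinase for fibrillar collagen, had 3.54 against 0.011, and the necroptosis kinase Ripk3 4 against 0.018. Fam111a and Ebf3 were at least 8.36 and 8.20 higher on the log2 scale. On the lower side, Kcnab1, a potassium channel beta subunit, had levels of 0.0893, 9.65, 0.154 and 6.46, Amica1, a junctional adhesion protein of leukocytes, 0.0126 and 3.37 on the arrays labelled G2KO and WT, and the adhesion genes Cdh22 and Cadm1 were dim on the G2KO-labelled array. The transcripts named 2610017I09Rik and 2610027F03Rik were at most -7.83 and -7.35.

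The study gives its own list for G2KO MEFs. Whether it was drawn from these arrays is not clear, since its methods describe dye swaps, so its counts are not taken as independent evidence. Of its 28 autosomal genes, 27 were found, 20 at least 4-fold higher and 7 at least 4-fold lower on the G2KO-labelled array. The study lists the 20 as down-regulated and the 7 as up-regulated, so all 27 ran opposite to its list as labelled. Among those not named above, Limch1 had levels of 1.37 and a dim 0.00399, Cacna1g 0.561 and 0.0261, and Esm1 1.82 and a dim 0.00162. Against the WT array of the DKO pair, 1 of the 23 with a ratio was higher on the G2KO-labelled array and 5 lower.

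Genes past 4-fold sometimes lay side by side. Counting genes with a ratio in order along the autosomes, 15 runs of at least 3 neighbours past 4-fold in the same direction were found, 14 higher and 1 lower, with 48 genes in all. Besides the Cxcl, Mmp and Ccl clusters, Aspn, Omd and Ogn, which are neighbouring small leucine-rich proteoglycans, formed a run of 57.1 kb on chromosome 13 (49662479 to 49719608 of mm9). The lower run, on chromosome 1, held 2610017I09Rik, the neural POU factor Pou3f3 and 2900092D14Rik within 54.9 kb, at log2 ratios between -7.83 and -2.64. Other runs joined genes of different families, such as Prdm8, Fgf5 and 1700007G11Rik on chromosome 5 or Gatm, Spata5l1, AA467197 and Slc30a4 on chromosome 2.

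Whole autosomes also differed slightly. For probes measured on both arrays, the median log2 ratio was -0.46 on chromosome 6 (1261 probes, 80.2% below 0) and -0.41 on chromosome 7 (2017 probes, 80.0% below 0), against -0.16 over all autosomal probes and 0.10 on chromosome 5. The quartiles on chromosome 6 were -0.78 and -0.10. Relative to all probes the median of chromosome 6 was -0.30, and it was again -0.30 after centring within bins of probe GC content, with which ratios moved from -0.02 in the AT-rich bin up to 35% GC to -0.44 above 60% GC. With the WT array of the DKO pair as denominator, the medians of the G2KO-labelled array stayed within -0.16 and 0.05 on every autosome, whereas that of the WT-labelled array was 0.37 on chromosome 6 and 0.28 on chromosome 7. The DKO array stood 0.35 above its own median on chromosome 6 in the same comparison. Gene copy number was not measured.

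**Figure D5:**
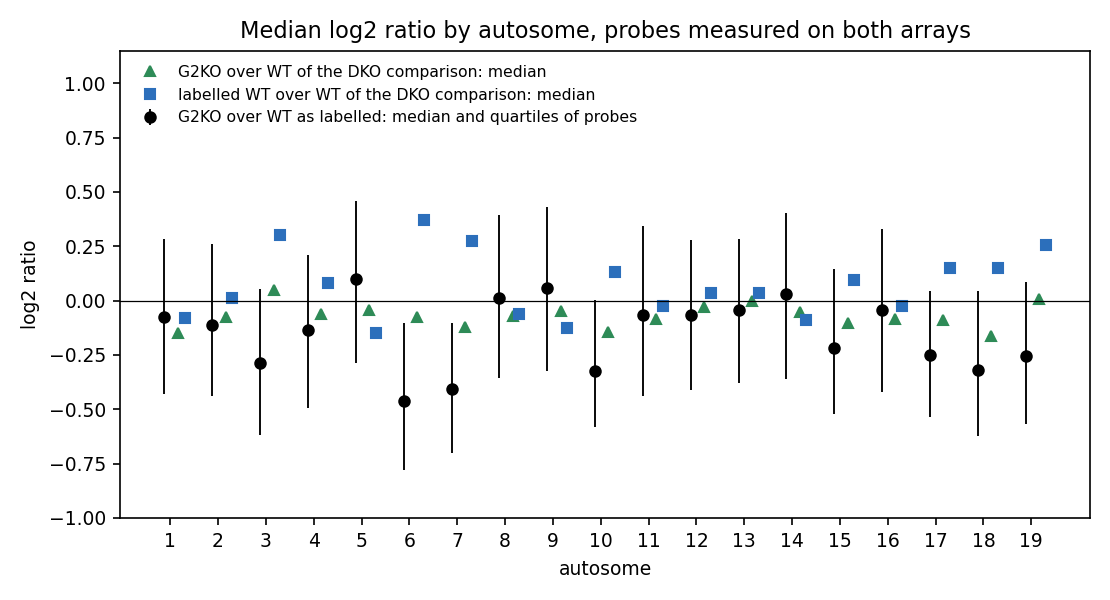
Median log2 ratio (y axis) by autosome (x axis) for probes well above background on both arrays of a pair. Circles with bars give the median and quartiles over probes for the G2KO-labelled array over the WT-labelled array, triangles the G2KO-labelled array and squares the WT-labelled array, each over the WT array of the DKO pair; on chromosome 6 the circle is at -0.46 and the square at 0.37, while the triangles stay within -0.16 and 0.05.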

How the data were processed

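Cy3-labelled RNA of 4 MEF samples, 1 per group, was measured on 4 Agilent 4x44K arrays of 1 slide. The authors deposited signal intensity per spot from Feature Extraction (10.7.3.1 per the file headers, 10.5.1.1 in the submitters' processing notes), background-corrected and detrended within the array. The labels describe single-color arrays, whereas the study's methods describe dye swaps for G2KO MEFs. The deposited value table holds the same intensity. Scale signals were 2234 (array labelled G2KO) and 1586 (array labelled WT), and no spot was saturated.

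Control spots and 107 to 140 outlier spots per array were left out, each array's intensity was divided by its 75th percentile and taken to log2, and repeat spots were averaged per probe. A ratio needed a signal well above background on at least 1 array. A gene was represented by its probe with the highest mean over 4 arrays. Gene names and positions (mm9) are those of the files, and 26055 of 32334 probes with a RefSeq accession matched a GRCm38.p6 table used for names and promoters. Python 3.11.15, pandas 2.3.3 and, for normexp, limma 3.58.1 were used, and the ratios were tested on simulated data. With 1 array per group no p-value, SE or count of significant genes exists, and 4-fold was the threshold.

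The members, the 46 gene lists and the rule for named genes were chosen with earlier results of these data known. Genes named were Ccng1 and Ccng2, the 12 largest ratios and 10 largest measured ratios each way, up to 6 genes per list, defining cell markers, genes the study names for G2KO, and runs of 3 or more genes; a few list members outside this rule were chosen after their values were seen, to complete a count or to show markers near equal. A few genes within the rule are not reported here. Alternatives were other thresholds and filters, normexp, quantile, median and no scaling, the median over probes, and the other or both WT arrays as comparator.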

Additional observations from a re-analysis of the deposited data

Results flagged for a closer look

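Genes on chromosomes X and Y lie outside the comparison. With them kept, 1013 probes were at least 4-fold higher and 542 at least 4-fold lower, against 954 and 520 without them. Of the sex-linked genes that differed, 4 are given here. Ddx3y was at least 184-fold higher on the G2KO-labelled array, Eif2s3y at least 279-fold and Uty at least 4.17-fold. Xist was at least 172-fold lower there. The study describes its G2KO MEFs as female, and the sex-linked transcripts on the arrays run against that as labelled. An exchange of the labels was not tested, and the sex of the embryos and the labelled genotype cannot be told apart.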

How the results depend on the processing

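Other thresholds and filters changed the counts of higher and lower probes by construction: 2299 and 2243 at 2-fold, 388 and 163 at 10-fold, 569 and 302 for probes well above background on both arrays, and 1274 and 927 with no filter or floor. After normexp they were 443 and 234 (SD 0.720), without scaling 1431 and 338, with the WT array of the DKO pair as comparator 210 and 345 (SD 0.570), and with the mean of both WT arrays 389 and 215 (SD 0.519). The share of higher calls thus rested on the scaling and on the WT array used. Without scaling the median of all genes was 0.34 instead of -0.16, a shift of 0.49, and list medians are read relative to it. Of 141 named genes past 4-fold, 78 stayed past it with the mean of both WT arrays, 113 after normexp, 131 without scaling, 140 after quantile normalization and 141 when scaled to the median. All kept their sign in these settings, which a shift of this size could hardly change. With the WT array of the DKO pair alone, 57 of 124 kept it and 9 stayed past 4-fold. Centring within GC bins, chosen after seeing the data, left chromosome 6 at -0.30. Scaling to E1A spike-ins was not run, since 1 or 2 of 10 such probes were well above background per array. No paired analysis was possible because each group has 1 array. For dim probes the signal over background allows only limits.

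Against the WT array of the DKO pair, the log2 ratio of the G2KO-labelled array turned to 1 unit or more below 0 for Sfrp2 (-3.439), Slc1a3 (-3.108), Col10a1 (-2.913), Ogn (-2.560), Col8a2 (-2.545), Rspo2 (-2.527), Dlk1 (-2.465), Limch1 (-2.135), Cacna1g (-2.059), Tnn (-2.045), Dcn (-1.964), Gstt1 (-1.681), Pdgfra (-1.578), Sparcl1 (-1.565), Rspo1 (-1.445), Igfbp4 (-1.337), Dhrs3 (-1.129), Mest (-1.077) and Adm (-1.042). It turned to a smaller negative value for Postn (-0.995), Mmp3 (-0.985), Aspn (-0.958), Dsp (-0.940), Dkk2 (-0.940), Mmp1a (-0.897), Ppbp (-0.789), Omd (-0.787), Sox9 (-0.747), Ddr2 (-0.684), Fgf10 (-0.684), Alx1 (-0.676), Ltbp2 (-0.640), Cdkn2b (-0.632), Smoc2 (-0.630), Igf2 (-0.594), Fgf7 (-0.575), Mmp2 (-0.575), Ebf3 (-0.529), Igfbp2 (-0.503), Fbln2 (-0.492), Efemp1 (-0.473), Igfbp6 (-0.422), Crabp1 (-0.383), Col3a1 (-0.301), Bnc1 (-0.250), Lox (-0.250), Thy1 (-0.212), Ctsz (-0.202), Ptprz1 (-0.145), Stmn2 (-0.115), Col11a1 (-0.083), Gsta4 (-0.005) and Spata5l1 (-0.004). Of the lower genes, it turned positive for Amica1 (0.293), Mgst1 (1.308), Igfbp3 (0.452), Ccng1 (0.249), Nes (0.881), Lhx2 (0.758), Nkx6-1 (0.070), Gata6 (0.097), Cdkn1a (0.170), Fstl3 (1.408), Igfbp5 (2.091), Snrpn (1.366), Ankrd37 (0.487) and Lif (2.132). The cause was not tested.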
